A study of Rattus norvegicus with 10 samples.

Results

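The sites described here are places where SOX9 and SOX6 were both bound in a rat chondrosarcoma line. Their SOX9 peak met H3K4me1 but no peak of H3K27ac or H3K4me3, although such peaks could lie in the flanks. The sites were chosen by overlap of the deposited peak lists. A SOX9 peak was kept if at least 1 bp of it lay in a SOX6 peak and at least 1 bp in an H3K4me1 peak. No base of it was allowed to lie in an H3K27ac or H3K4me3 peak. The rule kept 401 of the 14782 SOX9 peaks, which is 2.71% (95% Wilson interval 2.46% to 2.99%), and 4.81% (4.38% to 5.30%) of the 8329 SOX9 peaks that met a SOX6 peak. All 401 enter the counts below unless a smaller number is given, and no filter on low values was applied. They are called H3K4me1-only shared sites. The name refers to H3K4me1, H3K27ac and H3K4me3, since H3K9me3 was not part of the rule. The comparison class is the 7794 shared sites that carried H3K27ac, called acetylated shared sites. A narrower class of 4007 of them, with H3K27ac and H3K4me1 but no H3K4me3, is called acetylated enhancer-type sites. Of the overlaps in the rule, it differs from the H3K4me1-only sites in H3K27ac alone. The 2 classes are not matched in peak scores or widths, which differ as given below.

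SOX9 and SOX6 are transcription factors that bind DNA through an HMG box. SOX9 commits mesenchymal cells to cartilage and drives genes of the cartilage matrix, while SOX6, together with the closely related SOX5, has no activation domain of its own and strengthens the action of SOX9 on such genes. H3K4me1 is laid down at enhancers by the methyltransferases KMT2C and KMT2D and can be present before an enhancer is active. H3K27ac is laid down by the acetyltransferases p300 and CBP and marks enhancers and promoters in use, so an enhancer with H3K4me1 alone is commonly described as primed.

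The study used RCS cells, a tumour-derived rat line that serves as a model of chondrocytes, and no treatment or genotype is given in the labels. Chromatin immunoprecipitation with sequencing was done with 1 library for each factor, for the active marks H3K4me1, H3K4me3 and H3K27ac, and for H3K9me3, a mark of heterochromatin, and 4 input libraries without antibody accompany them. With 1 library per antibody no value has a replicate error and no test between libraries is possible. Intervals cover counting error over sites, which are not independent replicates. The input libraries held 36873004 to 131858579 reads, of which 53.4% to 53.5% aligned. The depth of the immunoprecipitated libraries is not in the values used here. A missing H3K27ac peak therefore means that none was listed at the authors' threshold, and acetylation below that threshold was not detectable in peak lists.

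Coordinates are on rn5, counted from 1. A genome sequence or annotation of that build was not used here, so sites are given by position without a gene name or sequence.

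Of the 535 shared sites without H3K27ac, 401 (74.95%) were H3K4me1-only. A further 38 had H3K4me1 with H3K4me3, 15 had H3K4me3 alone and 81 had none of the 3 active marks. Seen from the mark, SOX9 peaks that lay on H3K4me1 alone numbered 988, and 40.6% (37.6% to 43.7%) of them met a SOX6 peak, against 56.3% of the whole SOX9 list. Of all 42688 H3K4me1 peaks that met neither H3K27ac nor H3K4me3, 375 (0.878%) held both factors, 526 (1.23%) SOX9 alone and 1444 (3.38%) SOX6 alone, while 40343 held no SOX peak. These H3K4me1 peaks had a median width of 1165 bp with both factors, 980 bp with SOX9 alone, 1034 bp with SOX6 alone and 741 bp with no SOX peak. The overlaps are the rule itself, so these counts are descriptions.

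The most evident contrast between the classes lay in the H3K4me1 around the sites. At the SOX9 peak centre 97.8% (95.8% to 98.8%) of H3K4me1-only sites and 94.9% (94.1% to 95.5%) of acetylated enhancer-type sites were under an H3K4me1 peak, a difference of 2.90 percentage points (0.829 to 4.18). The share was 77.8% (76.8% to 78.7%) over all acetylated shared sites and 65.2% over the whole SOX9 list, not all of which meet H3K4me1. Overlap with H3K4me1 was required of the H3K4me1-only and the acetylated enhancer-type sites, which largely sets their high shares at the centre. Moving out by 500 bp, with both sides counted, the mark covered 63.8% and 84.4% of positions at H3K4me1-only and acetylated enhancer-type sites. At 1000 bp it covered 23.7% and 68.2%, and at 5000 bp it covered 7.73% and 21.0%. The profile of coverage shows this narrower H3K4me1 domain around the factors.

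**Figure D1:**
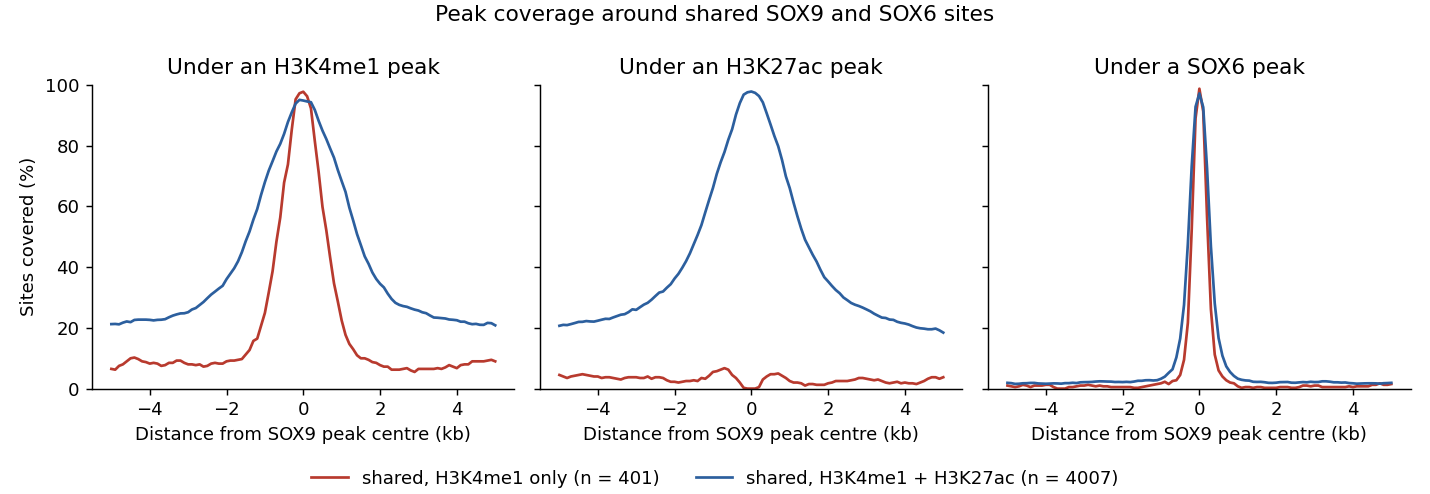
Share of sites (y axis, %) whose position at each distance from the SOX9 peak centre (x axis, kb) lay under a peak of H3K4me1, H3K27ac or SOX6, in steps of 100 bp, for the 401 H3K4me1-only shared sites (red) and the 4007 acetylated enhancer-type sites (blue). The H3K4me1 curves start at 97.8% and 94.9% and separate within 1 kb. Both classes had to overlap H3K4me1 and SOX6, so the high values of these curves at the centre largely follow from the rule. The H3K27ac values at the centre, low in red and high in blue, are set by the rule as well.

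The H3K4me1 peaks under the 401 sites had a median width of 1228 bp (quartiles 853 and 1694 bp), against 2113 bp (1470 and 3102 bp) at acetylated enhancer-type sites. An H3K4me1-only site had the narrower H3K4me1 peak in 77.3% of all pairs of sites drawn from the 2 classes. The median score of the H3K4me1 peak, the authors' deposited value for each peak on a scale that is not given, was 271 (131 and 490) against 885 (448 and 1750). Both stood above the median of the whole H3K4me1 list, 155, at the 67.2 and 90.2 percentile of that list. Among the 392 H3K4me1-only and 3801 acetylated enhancer-type sites with the SOX9 centre inside an H3K4me1 peak, the centre lay a median of 155 bp (134 to 172) and 307 bp (295 to 323), respectively, from the middle of that peak. In proportion to the width of the peak, 79.3% (75.1% to 83.1%) of these H3K4me1-only sites and 70.7% (69.3% to 72.1%) of these acetylated enhancer-type sites had their centre in the central 50% of it. Only 3 of the 401 sites, 0.748% (0.255% to 2.18%), touched 2 or more H3K4me1 peaks, a layout that occurred at 5.22% (4.57% to 5.95%) of acetylated enhancer-type sites. The share was similar, 0.681% (0.265% to 1.74%), at the 587 SOX9 peaks on H3K4me1 alone that met no SOX6 peak. SOX9 peaks were also narrower at H3K4me1-only than at acetylated enhancer-type sites, with medians of 439 and 605 bp. The part of that width was not tested.

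The share of sites without H3K27ac was graded by the H3K4me1, SOX9 and SOX6 scores. Among the 4408 shared sites with H3K4me1 and no H3K4me3, 9.10% (8.28% to 9.98%) lacked an H3K27ac peak. The share was 26.5% (23.7% to 29.5%) in the lowest quintile of H3K4me1 score, 11.7% in the second, 4.88% in the third, 1.70% in the fourth and 0.680% (0.312% to 1.48%) in the highest. By SOX9 score it went from 19.95% (17.4% to 22.7%) in the lowest quintile to 2.49% (1.65% to 3.75%) in the highest, and by SOX6 score from 15.99% (13.7% to 18.6%) to 3.40% (2.39% to 4.81%). Each step down in these 3 series was in the same direction. The scores of H3K4me1 and SOX9 ran almost independently within a class, with a rank correlation over sites of 0.031 at H3K4me1-only and 0.074 at acetylated enhancer-type sites, so the gradients could be crossed. With both in their lowest quintile, 105 of 219 sites lacked H3K27ac, or 47.9% (41.4% to 54.5%). With both in their highest quintile none of 254 did, which allows a share of up to 1.18%. A low SOX9 score with the highest quintile of H3K4me1 gave 2 of 135 sites, 1.48% (0.407% to 5.24%), and a high SOX9 score with the lowest quintile of H3K4me1 gave 7 of 149, 4.70% (2.29% to 9.38%). At high SOX9 scores the share did not fall at every step, since the second quintile of H3K4me1 gave 12 of 145, 8.28% (4.80% to 13.9%), with an interval that overlaps that of the lowest. Low scores are also where a peak of any list lies nearest to its threshold, and the part of that in these gradients was not tested.

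**Figure D2:**
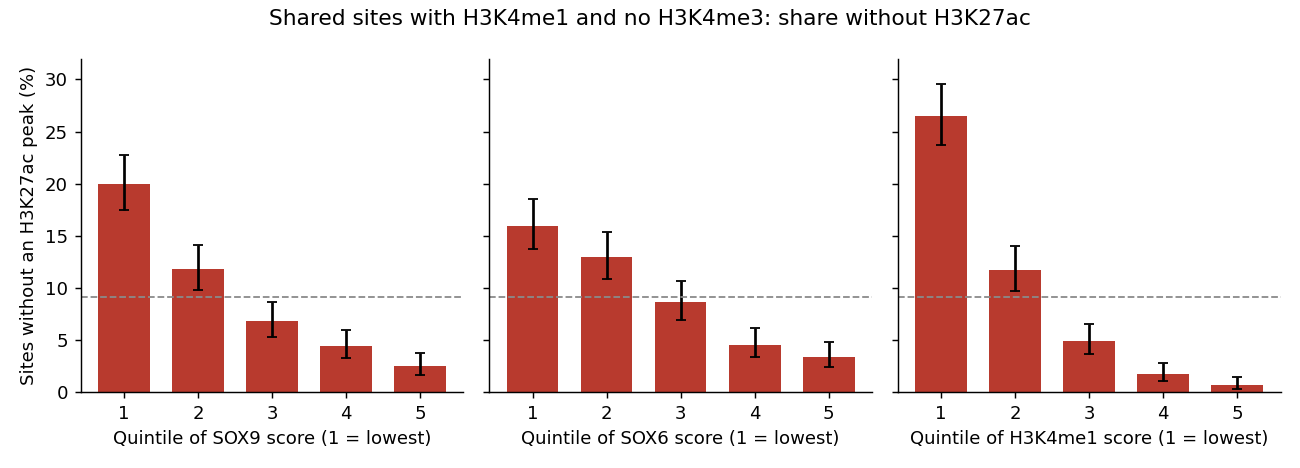
Share of the 4408 shared sites with H3K4me1 and no H3K4me3 that had no H3K27ac peak (y axis, %), by quintile of SOX9, SOX6 and H3K4me1 score (x axis, about 882 sites each), with 95% Wilson intervals; the dashed line is the share over all of them, 9.10%. The share falls at every step, most widely for H3K4me1, from 26.5% to 0.680%.

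Binding of both factors was listed at lower scores than at acetylated sites. The SOX9 scores of the 401 sites ran from 50.05 to 1064 with a median of 81.0 (quartiles 61.2 and 128), and those of the acetylated shared sites from 50.01 to 3100 with a median of 159 (86.1 and 341). The scores of the H3K4me1-only sites lay inside the range of the acetylated shared sites, which reached higher, and an H3K4me1-only site had the lower SOX9 score in 71.1% of all pairs. The median of the whole SOX9 list was 90.3, so the typical H3K4me1-only site stood at the 44.8 percentile of its list and the typical acetylated shared site at the 70.1 percentile. For SOX6 the median was 115 (75.1 and 209; highest 2281) against 212 (109 and 438), and the H3K4me1-only site was lower in 67.3% of pairs. Not all of the sites had low scores. Both factors were above the median score of their lists at 113 sites (28.2%), compared with 60.05% of acetylated shared sites, and both were below it at 117. SOX9 peaks had a median width of 439 bp against 671 bp, and SOX6 peaks of 427 bp against 609 bp. The scores of the 2 factors moved together less than at acetylated shared sites, with a rank correlation over sites of 0.231 against 0.492. The interquartile range of both scores was narrower here as well, and its part in the lower correlation was not tested.

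**Figure D3:**
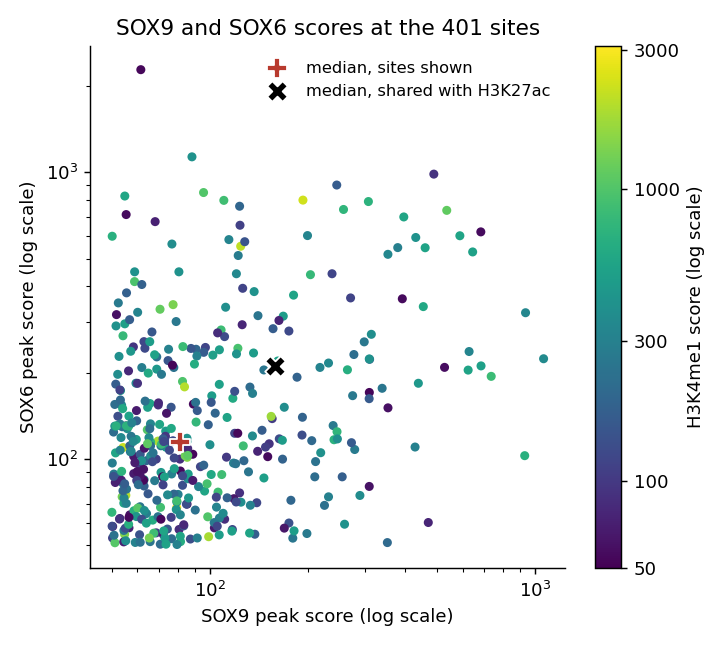
SOX9 peak score (x axis, log scale) and SOX6 peak score (y axis, log scale) of the 401 H3K4me1-only shared sites, 1 point per site, coloured by H3K4me1 score. The median of these sites (red plus, 81.0 and 115) lies below that of the acetylated shared sites (black cross, 159 and 212), and points with high SOX9 scores occur with low and with high H3K4me1 scores.

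The centres of the overlapping SOX9 and SOX6 peaks lay close together, which is in part set by the overlap that the rule requires. A centre is the midpoint of a peak interval, and the nearest SOX6 centre was taken where several SOX6 peaks were met. The SOX9 and SOX6 peak centres were a median of 43 bp apart (35 to 50, quartiles 14 and 81 bp). The median was 56 bp (54 to 57, 19 and 122 bp) at acetylated shared sites. At acetylated enhancer-type sites it was 47 bp (45 to 49, 16 and 97 bp), inside the interval of the H3K4me1-only sites. Close alignment was not particular to the H3K4me1-only sites. At the 81 shared sites with none of the 3 active marks the median was 17 bp (10 to 28), with 91.4% (83.2% to 95.8%) within 100 bp. Centres were within 100 bp at 336 of the 401 sites, 83.8% (79.9% to 87.1%), a share 7.70 points (3.57 to 11.2) above that of acetylated enhancer-type sites. Both peaks were also narrower here, as given above, and the part of peak width in the spacing was not tested. The widest separation, 910 bp, was at the site with the highest SOX6 score.

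That site lay at chr8:6275046-6275699, with a SOX6 score of 2281 but a SOX9 score of 61.4. Its SOX6 peak ran from 6275070 to 6277496 and its H3K4me1 score was 53.6. The other sites with the highest SOX6 scores had centres within 104 bp. At chr3:116388324-116388683 the scores were 1133 for SOX6 and 88.2 for SOX9, with the centres 1 bp apart. At chr5:93122014-93122525 they were 986 and 489. At chr1:170439455-170440055 they were 903 and 246, and at chr7:95864723-95865621 they were 850.5 and 95.8. High SOX6 scores were thus found with SOX9 scores from near the lower limit of its list to far above its median.

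Of the 10 sites with the highest SOX9 scores, 7 had SOX6 scores of 103 to 324 and 3 had scores of 528 to 620. The first site lay at chr8:130908245-130908952 and had a SOX9 score of 1064, a SOX6 score of 224 and an H3K4me1 score of 354. Its nearest H3K27ac peak was 90527 bp away. The second, at chr17:23071365-23072048 with a SOX9 score of 937, lay only 90 bp from an H3K27ac peak. The third, at chr4:246276335-246277357, had a SOX9 score of 931 with a SOX6 score of 103, and H3K27ac lay 106492 bp away. High SOX9 scores without an H3K27ac peak thus occurred both beside acetylated chromatin and far from it. The remaining 7 of the first 10 had SOX9 scores of 588 to 734. They lay at chr8:129322735-129323388, chr1:147130282-147130587, chr2:51337523-51338431, chr6:51804662-51805385, chr13:90804499-90804988, and chr4:163697029-163697631 and chr4:194240810-194241575.

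Both SOX scores were in the highest quintile of the 4408 sites at 9 sites, out of 469 such sites (1.92%, 1.01% to 3.61%). When both were in the lowest quintile, 70 of 298 sites lacked H3K27ac (23.5%, 19.0% to 28.6%). The 9 sites were singled out after their values were seen. Among them, the site at chr2:51337523-51338431 combined scores of 682 for SOX9 and 620 for SOX6 with an H3K4me1 score of 56.2, close to the lower limit of its list, and lay 360559 bp from H3K27ac. The site at chr5:93122014-93122525 was of the same kind, with an H3K4me1 score of 91.2 and H3K27ac at 419770 bp. Its next SOX site was 514784 bp away. The site at chr11:80587340-80588186 had high values of all 3, at 536 for SOX9, 737 for SOX6 and 1126 for H3K4me1, yet its nearest H3K27ac peak was 104702 bp away.

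The sites ranged from the edge of acetylated chromatin to far outside it. The gap to the nearest H3K27ac peak ran from 3 bp to 2683500 bp with a median of 16620 bp (quartiles 5616 and 51836 bp). It was over 50 kb at 108 sites (26.9%, 22.8% to 31.5%) and over 100 kb at 53 sites (13.2%), while 170 sites (42.4%, 37.7% to 47.3%) had H3K27ac within 12500 bp. Over all SOX9 peaks, most of which meet H3K27ac, the gap was over 50 kb at 7.08% and over 100 kb at 4.59%. Over the 587 SOX9 peaks on H3K4me1 alone without SOX6 these shares were 23.5% (20.3% to 27.1%) and 13.3% (10.8% to 16.3%), with intervals that overlap those of the H3K4me1-only shared sites. The gap to H3K4me3 had a median of 36924 bp (13414 and 91346 bp), against 24587 bp (8876 and 64145 bp) at acetylated enhancer-type sites, which lack H3K4me3 by the same rule. An H3K4me3 peak was within 5 kb at 10.5% (7.84% to 13.9%) and 16.2% (15.1% to 17.3%) of the 2 classes, a difference of -5.70 points (-8.58 to -2.14). The farthest site lay at chr2:152945418-152945927, 2683500 bp from H3K27ac and 832856 bp from the next SOX site, with scores of 133 for SOX9 and 178 for SOX6. A pair of SOX9 peaks at chr14:27987872-27988512 and chr14:27988880-27989111 followed at 773579 and 772980 bp. They shared a single SOX6 peak with a score of 450.02 and a single H3K4me1 peak, so they are not independent sites. The other 2 of the 5 farthest were at chr2:6901090-6901536 and chr5:57292775-57293732, at 674040 and 515112 bp.

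A smaller set lay at the edge of acetylated chromatin. The gap was at most 500 bp at 45 sites, between 500 and 2000 bp at 16, and between 2000 and 5000 bp at 35. These ranges differ in width, and the separate shoulder of very short gaps is seen on a log scale. H3K27ac was within 1 kb of 12.2% of the H3K4me1-only shared sites and 12.3% of the 587 SOX9 peaks on H3K4me1 alone without SOX6. It was within 1 kb of 25.9% (17.6% to 36.4%) of the 81 shared sites with none of the 3 active marks. Of the 49 sites within 1 kb, 44 had H3K27ac on a single side and 5 on both sides. The H3K27ac peaks next to these 49 sites had low scores, with a median of 82.2 and 43 of 49 below the median of the H3K27ac list, 332. On the unacetylated side of the 1 bp threshold, the closest sites were at chr5:62113452-62113658 and chr5:129215060-129215693, with gaps of 3 and 9 bp. Those at chr1:206998706-206999115, chr19:33190691-33191023 and chr15:89341865-89342231 followed at 19, 21 and 27 bp. On the other side, the acetylated enhancer-type site with the smallest overlap had 5 of its bases under H3K27ac and the next 4 had 24 to 40. Gaps of at most 100 bp occurred at 20 of the 401 sites, and overlaps of at most 100 bp at 15 of the 4007.

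**Figure D4:**
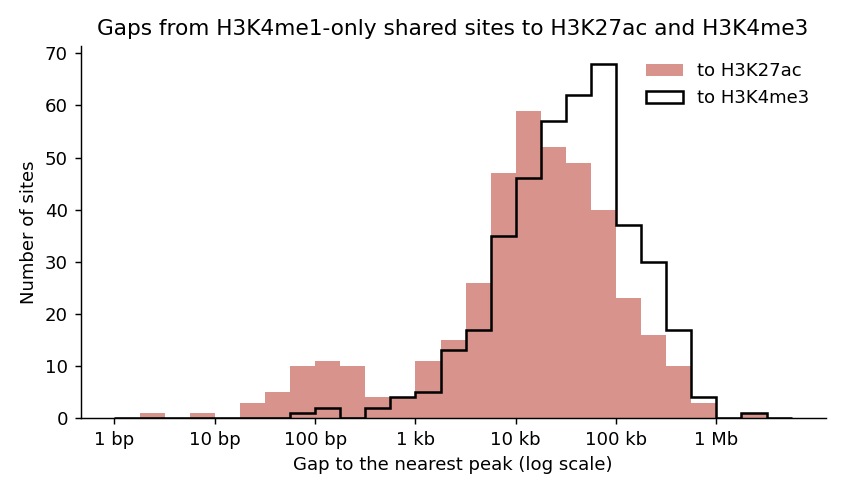
Number of H3K4me1-only shared sites (y axis) by the gap in bp to the nearest H3K27ac peak (red) and H3K4me3 peak (black line) on a log scale. Most gaps to H3K27ac lie around the median of 16620 bp, with a separate shoulder of 45 sites at 500 bp or less that the H3K4me3 gaps do not show to that extent.

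Scores at the sites did not step with this distance. The median SOX9 score was 95.8 within 1 kb of H3K27ac, 84.1 from there to 12500 bp, 75.2 up to 50 kb and 89.3 beyond, and the median SOX6 score was 136, 107, 111 and 123. The median H3K4me1 score was 299.8, 289, 251 and 272. The H3K4me1 peak was wider within 1 kb, at 1561 bp, than in the 3 farther classes, at 1192, 1173 and 1206.5 bp. The SOX9 peak, in contrast, was wider at each step away from H3K27ac, with medians of 381, 428, 446 and 506.5 bp. The interquartile ranges of all these measures overlapped between all distance classes. The widest H3K4me1 peaks under any of the 401 sites measured 7795 bp on chromosome 3 (chr3:116418925-116419676), 5356 bp on chromosome 4 (chr4:198376192-198376649), 5065 bp on chromosome 1 (the site 19 bp from H3K27ac), 4383 bp on chromosome 10 (chr10:74379355-74379819) and 4072 bp on chromosome 6 (chr6:785217-785699). In 3 of these 5 cases H3K27ac was within 349 bp. The H3K4me1 peak under a site extended to an H3K27ac peak elsewhere along its length at 34 of the 401 sites, 8.48% (6.13% to 11.6%).

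The H3K4me1-only shared sites had a neighbouring SOX site less often than acetylated shared sites. Another SOX9 or SOX6 site, with overlapping peaks of both factors counted as 1 site, lay within 12500 bp of 126 of them, or 31.4% (27.1% to 36.1%). The share was 61.4% (60.3% to 62.5%) at acetylated shared sites, a difference of -29.97 points (-34.5 to -25.1), and 58.5% (57.0% to 60.1%) at acetylated enhancer-type sites. Over the whole SOX9 list it was 52.1%, and over the 587 SOX9 peaks on H3K4me1 alone without SOX6 it was 37.1% (33.3% to 41.1%). The gap was present in every quintile of SOX9 score. In the lowest quintile of the SOX9 list the shares were 29.3% (20.2% to 40.4%) and 61.5% (57.2% to 65.6%) for the H3K4me1-only and acetylated shared sites, and in the highest they were 36.2% (24.0% to 50.5%) and 64.1% (62.3% to 65.9%). The median distance to the next SOX site was 25965 bp against 6615 bp. By distance from H3K27ac, the share of H3K4me1-only sites with a neighbour was 34.7% (22.9% to 48.7%) within 1000 bp of H3K27ac, 60.3% (51.4% to 68.6%) from there to 12500 bp, 17.1% (11.4% to 24.7%) up to 50 kb and 13.9% (8.60% to 21.7%) beyond 50 kb. A neighbour that itself carries H3K27ac places a site in the nearer classes, so these 4 shares are partly set by how the classes were made.

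When a neighbour was present it was less often a shared or acetylated one. The nearest other SOX site carried H3K27ac for 71 of 126 H3K4me1-only sites, 56.3% (47.6% to 64.7%), and for 90.7% (89.8% to 91.5%) of acetylated shared sites with a neighbour. It held both factors for 29 of 126, 23.0% (16.5% to 31.1%), and for 41.7% (40.3% to 43.1%). The rule keeps H3K4me1-only sites out of H3K27ac peaks and acetylated shared sites in them. The contrast in H3K27ac at close neighbours is therefore partly set by the rule. Joining H3K4me1-only sites over 12500 bp left 398 groups, of which 395 were single sites and 3 were pairs. The pairs were that on chromosome 14, that spanning chr4:230137736-230138455 within a single H3K4me1 peak 238 bp from H3K27ac, and that spanning chr6:60579517-60593026. The H3K27ac peaks nearest to the 401 sites were counted once per site, and 391 of them were distinct. Of these nearest peaks, 40.9% (36.2% to 45.8%) held a SOX9 or SOX6 peak, against 30.2% of all 50834 H3K27ac peaks. H3K4me3 was met by 45.1% (40.3% to 50.03%), against 38.7%. The peaks nearest to other classes of SOX sites were not examined, so these shares are not shown to be particular to the H3K4me1-only sites.

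H3K9me3 was rare at the sites. It met 9 of the 401, or 2.24% (1.19% to 4.21%), against 2.68% (2.35% to 3.06%) of acetylated shared sites and a background of 3.31% over all SOX9 peaks. The difference from acetylated shared sites was -0.437 points (-1.56 to 1.56), within counting error at this number of sites. The acetylated enhancer-type sites, at 3.47% (2.95% to 4.08%), were not separated from the H3K4me1-only sites either, with a difference of -1.22 points (-2.45 to 0.809). The 9 sites had SOX9 scores of 59.5 to 734 and SOX6 scores of 53.65 to 654, and 6 of the SOX6 scores were below the median of the SOX6 list, 104, at 53.65 to 74.7. The highest SOX9 score among them was at chr8:129322735-129323388, which was also the fourth highest of all 401. The others lay at chr3:2066795-2067258, chr3:43540201-43540781, chr3:167143068-167143468, chr4:27767601-27768079, chr7:114340886-114341205, chr9:14662064-14662612, chr10:15335247-15335765 and chr11:55998422-55999062.

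The sites were spread over all 21 chromosomes. Their number ranged from 1 on X and 7 each on chromosomes 12, 19 and 20 to 36 on chromosomes 2 and 4 and 37 on chromosome 3. As a share of shared sites with H3K4me1 and no H3K4me3, they made up 5.33% (2.73% to 10.2%) on chromosome 16 and 14.7% (9.89% to 21.2%) on chromosome 18, while chromosome X gave 1 of 37 and chromosome 20 gave 7 of 45. The other 17 chromosomes lay between 6.83% and 10.9%. Input reads per Mb differed between chromosomes, and were over 1.5 times the median chromosome on chromosomes 7, 9, 11 and 16. On these 4 the share was 7.96% (6.34% to 9.95%), and on the other 17 it was 9.38% (8.46% to 10.4%), a difference of -1.42 points with an interval that includes 0 (-3.33 to 0.776). Over the 21 chromosomes the share and the relative input had Pearson's r = -0.152 and Spearman's rho = -0.0870, and r = 0.165 and rho = 0.147 without those 4, as a description of chromosomes that share the same libraries.

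**Figure D5:**
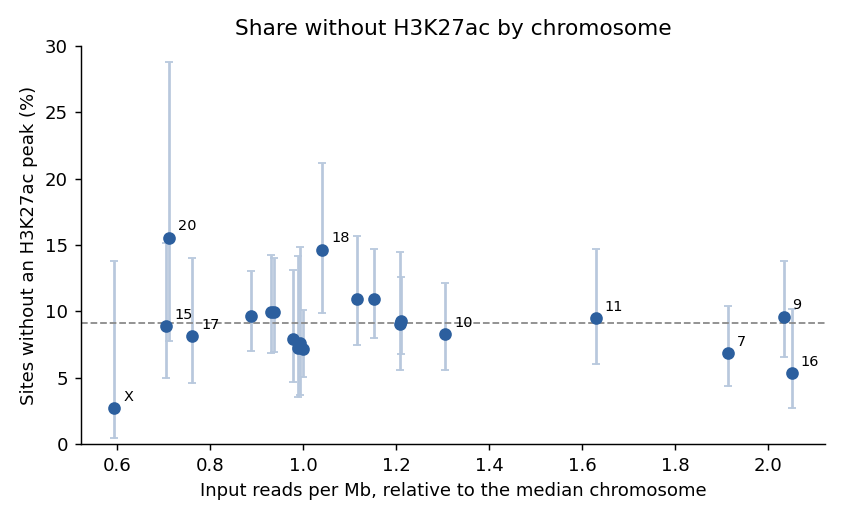
Share of shared sites with H3K4me1 and no H3K4me3 that lacked an H3K27ac peak (y axis, %, with 95% Wilson intervals) against input reads per Mb relative to the median chromosome (x axis), 1 point per chromosome; chromosomes away from the centre and chromosome 18 are named. The dashed line is the share over all chromosomes, 9.10%, and it lies inside the interval of every chromosome except 18.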

How the data were processed

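Peak lists of 6 immunoprecipitations and read tables of 4 inputs from RCS cells were used, with 1 library for each antibody. The names of the peaks hold the word MACS. Reads came through CASAVA 1.8 and coordinates are on rn5, per the submitters' processing notes. For the caller's version and settings, the aligner and the input set against each list, the sources used here give nothing. The score of a peak is a deposited value on a scale that is not stated. A score of 3100 is shared by many peaks, and scores were compared only within a list. The input tables hold deposited read counts per chromosome, per the file headers.

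Overlaps, gaps and shares were computed with Python 3.11.15, pandas 2.3.3 and scipy 1.17.1, and the overlap code was tested on simulated intervals. Where a site met several SOX6 or H3K4me1 peaks, the highest score and the widest peak were taken. Shares have Wilson and differences Newcombe 95% intervals. Intervals of medians come from binomial order statistics. A count of 0 was bounded by 3 counts. Input reads per Mb used the last peak end on each chromosome as its length. The sites named are the 10 highest in SOX9, the 5 highest in SOX6, the 5 nearest to and the 5 farthest from H3K27ac, the 5 with the widest H3K4me1 peaks, those with H3K9me3, and sites joined over 12500 bp. A further selection, the 9 sites with both SOX scores in their highest quintile, was made after the values were seen. The sites, classes and measures were chosen with earlier results of these data known. The gradients over quintiles, the distance classes, the position within H3K4me1 peaks and the intervals of medians were added after the data were seen. Alternatives changed the overlap needed, the distance kept free of H3K27ac and H3K4me3, the SOX9 peak width, the score thresholds, the list the sites came from and the comparison class. Motifs were not searched and sites were not assigned to genes, since a genome of this build was not used here.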

Additional observations from a re-analysis of the deposited data

How the results depend on the processing

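Over 11 alternative settings 119 values were recomputed. Of these, 92 stayed within their main interval (counts within 1.5 times), 27 moved beyond it, and no called direction reversed. Some of the 92 could not move. Settings that keep a distance free of H3K27ac and H3K4me3 leave the acetylated shared sites, and so their medians, unchanged. Requiring both SOX peaks to be above their list's median score left 113 sites, with median scores of 168 for SOX9 and 224 for SOX6, centres 33 bp apart and a difference of -24.8 points in the share with a neighbouring SOX site. That setting raises scores by its own construction. It also leaves fewer SOX sites to count as neighbours, and the share of H3K4me1-only sites with a neighbour fell from 31.4% to 19.5%. Counting only H3K27ac and H3K4me3 peaks above their list's median score gave 1131 sites, with median scores of 91.4 for SOX9 and 136 for SOX6. Both thresholds were raised together there, and neither was changed by itself. Keeping 5 kb free of H3K27ac and H3K4me3 widened the neighbour difference to -38.1 points. The difference in centres inside H3K4me1 from all acetylated shared sites was 21.6 points with an overlap of 0.5 of the narrower interval and 21.7 without the 4 chromosomes of high input. The overlap of 0.5 by itself places nearly every H3K4me1-only centre inside H3K4me1, at 99.8%, while acetylated shared sites need not meet H3K4me1. The difference was 2.90 points against the acetylated enhancer-type sites, all of which meet H3K4me1 by construction. The H3K9me3 difference stayed near 0 and turned slightly positive under 3 settings, with 0.178 points under the overlap of 0.5, 0.0522 with SOX9 peaks narrowed to 400 bp and 0.00558 without the high-input chromosomes. For the other moves the cause was not tested. The high-input and SOX6-quintile settings were chosen after seeing the data. No paired analysis was possible because each antibody has 1 library, and no library could be left out for the same reason. Peak lists limit what can be said: acetylation below the H3K27ac threshold was not detectable, and peak scores of unknown scale carry no depth. The planned motif search was not run.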

Other observations

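SOX9 peaks on H3K4me1 alone that met no SOX6 peak offer a second unacetylated class of 587 sites. Their SOX9 scores were lower, with a median of 62.5 (quartiles 54.3 and 78.6) against 81.0 (61.2 and 128) at the H3K4me1-only shared sites, and 17 of them (2.90%, 1.82% to 4.59%) had a score over 200, against 59 of 401 (14.7%, 11.6% to 18.5%). Their H3K4me1 peaks had a median score of 176 and a median width of 1040 bp, against 271 and 1228 bp. H3K27ac was within 1 kb of 12.3% (9.85% to 15.2%) without SOX6 and 12.2% (9.37% to 15.8%) with it, within 5 kb of 31.9% (28.2% to 35.7%) and 23.9% (20.0% to 28.4%), and over 100 kb away from 13.3% (10.8% to 16.3%) and 13.2% (10.2% to 16.9%). The median gap to H3K27ac was 13220 bp (10279 to 16899) and 16620 bp (13364 to 20702). H3K4me3 was over 50 kb away from 37.1% (33.3% to 41.1%) and 43.1% (38.4% to 48.0%). H3K9me3 met 3.41% (2.22% to 5.20%) and 2.24% (1.19% to 4.21%).

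Of the 9 H3K4me1-only shared sites with H3K9me3, 7 were in the 2 highest quintiles of the SOX9 list, 4 of 77 sites in the fourth and 3 of 47 in the fifth. None of 75 sites in the lowest quintile met H3K9me3, which allows a share of up to 4%, and 1 of 100 and 1 of 102 did in the next quintiles. The counts are small, and the shares of 5.19% in the fourth and 6.38% in the fifth quintile have intervals of 2.04% to 12.6% and 2.19% to 17.2%. At acetylated shared sites in the same 2 quintiles the shares were 2.75% and 2.98%, inside these intervals. The H3K4me1 peaks under the sites met H3K9me3 anywhere along their length in 19 of 402 cases, 4.73% (3.05% to 7.26%), against 9.20% (8.35% to 10.1%) of the wider H3K4me1 peaks under acetylated enhancer-type sites. The share was 5.23% over all 92421 H3K4me1 peaks and 3.77% over the 42688 without H3K27ac and H3K4me3, so that of the H3K4me1-only sites was near the background.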
